A study of Mus musculus with 58 samples.

Results

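Tip and trunk wells were the live-sorted wells of 2 experiments on the mouse embryonic pancreas, at E13.5 and E14.5, that were chosen by their own transcript numbers, with thresholds for genes of the branch tips or of the trunk of the pancreatic epithelium. A tip well held at least 10 transcripts of Cpa1, more Cpa1 than Spp1, and at least 1 transcript of Ptf1a or Rbpjl. A trunk well held at least 1 transcript of Sox9, at least 5 of Spp1, more than 2 times as much Spp1 as Cpa1, under 2 of Neurog3 and under 1 of Tyrobp. Every well also held at least 2000 transcripts and 500 genes, spike-ins left out. The thresholds found 130 tip wells and 86 trunk wells, 216 of the 666 retained live wells of the 2 experiments, among 5760 wells in the series whose plate matched a listed library. No well passed both sets of thresholds (0 wells).

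The series profiles single cells of mouse embryonic pancreas from E12.5 to E18.5 by SORT-seq, which sorts single cells into the wells of 384-well plates and counts transcripts by unique molecular identifiers. Embryos came from pregnant females carrying MIP-GFP, a transgene that reports insulin promoter activity as GFP. The labels give no strain and do not say whether embryos were pooled. Both experiments used here are plates of live cells, sorted as negative for the viability dye DAPI and not by GFP, so tip and trunk wells shared the reporter background, the plate and the sort. The E13.5 plate had 347 retained wells, of which 86 were tip and 51 trunk, and the E14.5 plate had 319, of which 44 were tip and 35 trunk. For the E14.5 plate the labels list 3 libraries, yet all 384 wells held transcripts, so some wells may belong to no listed library. Each stage had 1 experiment, so stage and experiment cannot be told apart. The p-values below rest only on these 2 experiments, with a spread moderated across genes. Each gene had 1 residual degree of freedom of its own, beside a median of 13.1 lent by all genes. The p-value and standard error of a gene thus reflect mostly the shared spread, and less its own difference between the experiments.

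The pancreatic epithelium branches as it grows, and its cells sort into tips at the ends of the branches and a trunk behind them. Tip cells are known for Ptf1a and Cpa1; they are progenitors of several lineages early on and later give rise to acinar cells, which make and export digestive enzymes. Trunk cells are known for Sox9 and Spp1 and form the ducts and, through cells that switch on Neurog3, the endocrine cells. Notch signalling between neighbouring cells and the Hippo pathway, which acts through the coactivators Yap and Taz, are both known for their roles in this division.

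The genes of the thresholds are described here without a test, since they chose the wells. Cpa1, a carboxypeptidase gene, had a median of 82 transcripts per tip well at E13.5 (10 to 576) and 141.5 at E14.5 (10 to 1597, where the largest value is the ceiling of the deposited scale). Trunk wells had medians of 2 and 1. Spp1, which encodes the secreted protein osteopontin, had medians of 52 and 97 transcripts in trunk wells and of 3 and 2 in tip wells. Ptf1a, a transcription factor of the acinar lineage, had at least 1 transcript in 93.0% and 100% of tip wells, and in 5.88% and 5.71% of trunk wells. Sox9, a progenitor and duct factor, was present in both classes: 96.5% and 95.5% of tip wells held a transcript. Its summed level was 350 and 284 transcripts per gene scaled to the same total in each sum (CPM) in tip wells and 929 and 1012 CPM in trunk wells.

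Close to the thresholds, 8 tip wells at E13.5 and 3 at E14.5 had 10 to 14 Cpa1 transcripts, and 4 and 3 wells that met the other tip conditions stayed outside with 5 to 9. Another 11 and 2 wells had enough Cpa1 but at least as much Spp1, with median Cpa1 of 33 and 27 and median Spp1 of 41 and 64. For the trunk, 1 well at E13.5 and 0 at E14.5 were inside with 5 to 9 Spp1 transcripts, and none was outside with 2 to 4 (0 wells at either stage). The condition that removed the most wells from the trunk was Neurog3: 20 and 16 wells met every other trunk condition but held at least 2 Neurog3 transcripts.

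One tip well of the E14.5 plate stood apart. With 22407 transcripts it lay at the limit of the thresholds (10 Cpa1 transcripts, 1 Ptf1a), and 3.07% of its transcripts came from marker lists of other cell types. It held 463 of the 519 Chgb transcripts of the E14.5 tip sum (89.2%), 86 of 99 of Fev, 27 of 35 of Neurod1 and 94 of 145 of Cpe, genes of endocrine precursors and their secretory granules. Results that rest on these genes are given with and without it. Markers of other cell types were otherwise scarce. Over the 4 sums, the 12 endothelial markers took between 0.0013% and 0.0039% of the transcripts, the 12 immune markers between 0.0013% and 0.0033%, the 8 red blood cell markers between 0.0012% and 0.0050%, and the 5 mesothelial markers at most 0.0010%. The 18 mesenchyme markers took 0.0597% and 0.0508% in tip sums and 0.125% and 0.167% in trunk sums, with 3 and 2 markers at 0 in the tip and 7 and 4 in the trunk. Most of these values was Vim, an intermediate filament gene (573 and 385 CPM in the tip, 1148 and 1406 in the trunk; -1.43 ± 0.167). Col1a1, a fibroblast collagen gene, was at 7.53 and 20.8 CPM in the tip and 3.71 and 33.5 in the trunk, and Dcn at 5.44 and 7.32 against 2.78 and 7.45.

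Transcripts were summed over the wells of each class and experiment, giving 2537277 (tip) and 1024984 (trunk) at E13.5 and 1954504 and 998924 at E14.5. Tip wells were deeper, with median totals of 29062 and 42657 against 18715 and 28331 in trunk wells. Of 9897 genes tested by edgeR's quasi-likelihood test with the experiment as block, 2347 passed a Benjamini-Hochberg adjusted p of 0.05 (23.7%). Of these, 1262 were higher in tip (12.8% of genes tested) and 1085 higher in trunk (11%), and 2346 of the 2347 had the same direction in both experiments. The median log2 difference over all tested genes was -0.00 after TMM scaling, which sets most genes to no difference. Scaled to total transcripts alone, that median was -0.21 and 29.1% of genes were called, 841 higher in tip (8.5%) and 2036 higher in trunk (20.6%). DESeq2 called 703 (7.1%), 404 higher in tip (4.08%) and 299 higher in trunk (3.02%). Counts of a list below are to be read against these shares of all tested genes. Levels below are CPM after TMM scaling unless stated. Differences are log2 of tip over trunk with the standard error (SE) implied by edgeR's test, and n is 2 experiments.

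**Figure D1:**
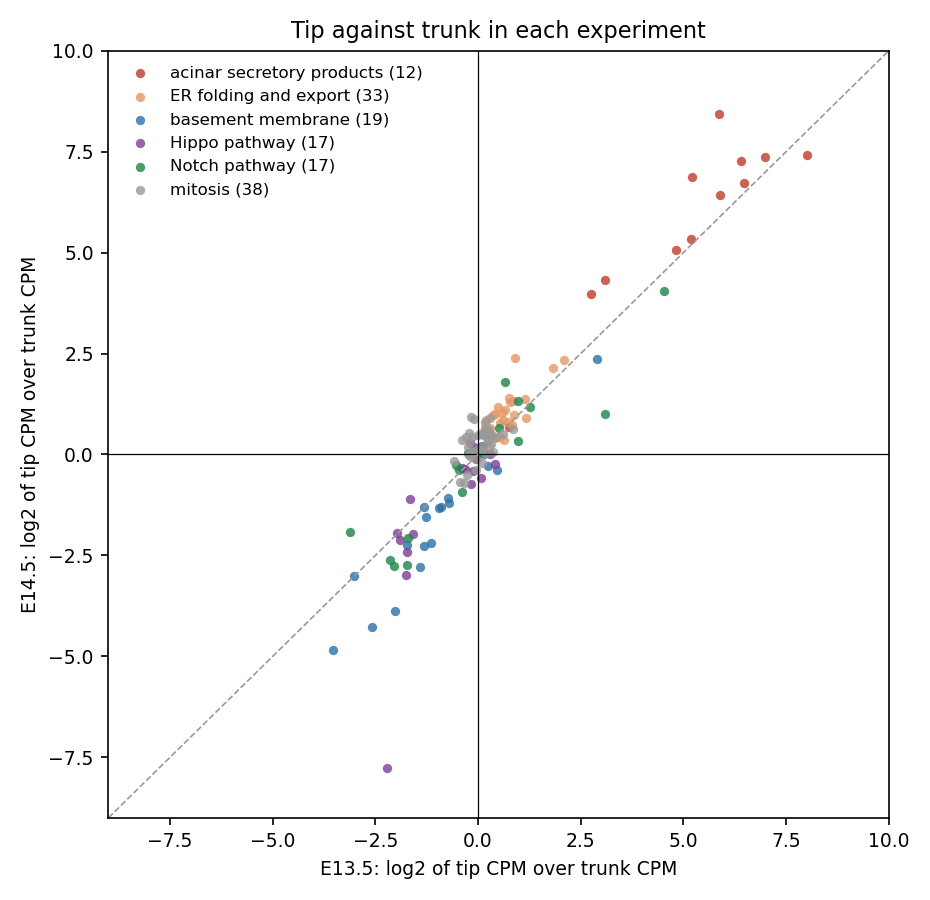
Log2 of tip CPM over trunk CPM at E13.5 (x axis) and E14.5 (y axis) for the tested genes of 6 lists, each point 1 gene with transcripts in all 4 sums. Acinar secretory genes lie at the upper right and basement membrane genes at the lower left in both experiments, while mitosis genes gather around 0. Genes at 0 in a trunk sum are not drawn, which removes 8 of the 20 tested acinar genes.

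Digestive enzymes and their companions made the widest gap between the classes. The wells were chosen by Cpa1, itself a digestive enzyme gene, so genes that vary with it are not independent of that choice. Of 20 tested genes of acinar secretory products, 19 were higher in tip and 0 higher in trunk, with a median log2 difference of 6.07. Ctrb1, a chymotrypsinogen gene (chromosome 8, 111686519 to 111691010), was at 6227 and 9424 CPM in the tip and 70.4 and 88.5 CPM in the trunk. Pnliprp1, a gene of the pancreatic lipase family (chromosome 19, 58728887 to 58744169), was at 2796 and 5392 CPM against 22.2 and 32.6. Both were far apart in each experiment, with differences of 6.61 ± 0.163 and 7.20 ± 0.181 (SE; edgeR adjusted p = 3.7e-12 for each). The trunk level of Ctrb1 was near that of the mesenchymal wells of the same plates, which should not express it (50.2 and 79.0 CPM in 82 and 137 wells with at least 20 fibrillar collagen transcripts and no Epcam). Trunk levels this low were therefore not read as expression.

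Cel, which encodes bile salt-stimulated lipase (chromosome 2, 28555795 to 28563403), was at 782 and 856 CPM in the tip and 9.26 and 5.59 in the trunk (6.77 ± 0.217, adjusted p = 4.64e-11). Cela1, an elastase gene, was at 511 and 1089.7 CPM against 13.9 and 9.31 (6.06 ± 0.246). Both genes were thus abundant in both tip sums. Spink3, the trypsin inhibitor gene of acinar cells, gave 6.08 ± 0.207 and Serpini2, a serine protease inhibitor gene, 6.60 ± 0.283. Amy2b gave 7.57 ± 0.29 and Prss2 6.64 ± 0.524, but amylase and trypsinogen genes have near-identical neighbours, so the share of reads among copies is uncertain. Some enzymes had not a single trunk transcript. Against a floor of 3 transcripts per trunk sum, Cpb1 was at least 11.4-fold higher in the tip at E13.5 and at least 10.3-fold at E14.5, and Cela3b at least 5.42-fold and 4.84-fold. Genes of mature acinar cells were still sparse in the tip itself: Pnlip was at 2.09 and 4.51 CPM, Ctrc at 7.11 and 0.563, and Gp2 at 2.51 and 1.13, each below the filter on low values.

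The stretches before the transcription starts of 4 of these enzyme genes, with and without matches, are shown because the tip factor Ptf1a, with Rbpjl, is known to bind a pair of short motifs, an E-box (CACCTG) and a TC-box (TTTCCCA). Sequences are 250 bases up to the start from RefSeq (GRCm38.p6), 5′ to 3′ on the gene's strand, with matches to either motif on either strand in capitals (CAGGTG and TGGGAAA are the reverse complements). The motifs share no overlapping match here. The windows are chr2:28563404-28563653 (minus strand) for Cel, chr6:41521526-41521775 (plus) for Prss2, chr8:111691011-111691260 (minus) for Ctrb1 and chr19:58728637-58728886 (plus) for Pnliprp1.
Cel: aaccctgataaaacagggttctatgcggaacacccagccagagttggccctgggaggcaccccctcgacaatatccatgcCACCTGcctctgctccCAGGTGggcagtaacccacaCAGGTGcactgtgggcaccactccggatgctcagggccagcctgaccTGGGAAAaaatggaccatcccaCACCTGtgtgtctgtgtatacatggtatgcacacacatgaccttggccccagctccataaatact
Prss2: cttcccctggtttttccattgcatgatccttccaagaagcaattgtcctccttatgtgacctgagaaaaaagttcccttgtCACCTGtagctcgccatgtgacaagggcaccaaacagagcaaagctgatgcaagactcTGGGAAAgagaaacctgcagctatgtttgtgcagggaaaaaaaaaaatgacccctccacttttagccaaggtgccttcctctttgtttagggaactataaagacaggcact
Ctrb1: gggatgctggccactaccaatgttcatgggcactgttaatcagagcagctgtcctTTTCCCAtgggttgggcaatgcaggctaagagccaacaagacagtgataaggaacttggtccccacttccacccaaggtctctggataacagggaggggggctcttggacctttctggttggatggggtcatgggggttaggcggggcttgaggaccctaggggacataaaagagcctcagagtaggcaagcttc
Pnliprp1: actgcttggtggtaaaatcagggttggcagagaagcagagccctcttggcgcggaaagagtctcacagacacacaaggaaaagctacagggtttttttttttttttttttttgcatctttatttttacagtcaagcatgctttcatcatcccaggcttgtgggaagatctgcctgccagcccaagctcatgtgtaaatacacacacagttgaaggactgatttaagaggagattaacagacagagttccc
Cel and Prss2 hold both motifs, Ctrb1 the TC-box alone and Pnliprp1 neither. Windows of 300 bases (250 before to 50 after the start) were found for 14 of the 19 called genes, 15 windows in all, and a gene counts where any of its windows matched. An E-box of this form lay in 9 of 14, against 20.2% of all 32851 windows, a TC-box in 5 of 14 against 8.06%, and both in 3 of 14 against 1.61%. A match is a description of the letters and not a measured binding site.

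**Figure D2:**
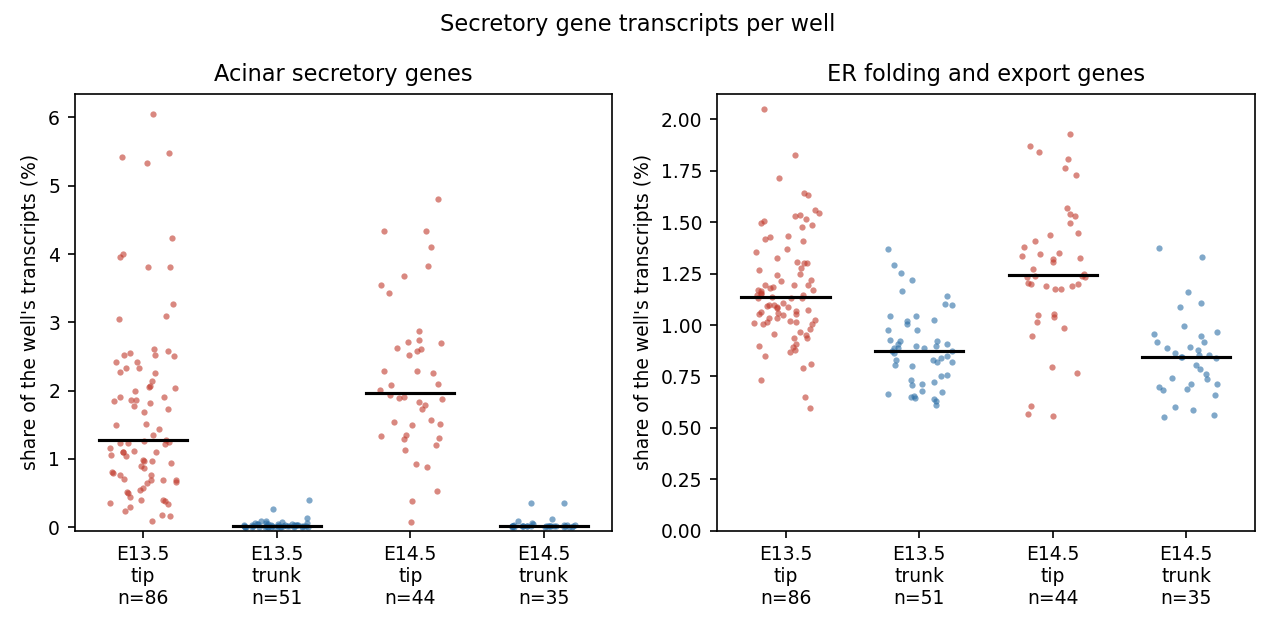
Share of each well's transcripts (percent, y axis) from acinar secretory genes (left) and from genes of protein folding and export in the endoplasmic reticulum (right), with 1 point per well and black lines at the medians. Tip wells spread from 0.087% to 6.05% acinar transcripts at E13.5 and trunk wells stay at or below 0.394%, while the endoplasmic reticulum shares of the classes overlap.

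Wells of the tip differed widely among themselves in enzyme content. The acinar share ran from 0.087% to 6.05% of a well's transcripts at E13.5 (median 1.27%) and from 0.072% to 4.80% at E14.5 (median 1.97%). The lowest E14.5 value was that of the single well that stood apart, and the next lowest was 0.386%. Trunk wells had medians of 0.022% and 0.016%. Within the tip, wells with more enzyme transcripts also had more transcripts for protein folding and export (Spearman's rho 0.64 over 86 wells and 0.71 over 44). The acinar share was nearly unrelated to a well's depth (0.05 and 0.08) and to its share of mitosis genes (0.03 and -0.18). In trunk wells the relation of acinar and folding shares was 0.17 and 0.06. These correlations are descriptions over wells of 1 plate each, whose shares are parts of the same total.

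Genes of the endoplasmic reticulum, where secreted proteins are folded and exported, were mostly higher in the tip. Of 34 tested, 26 were higher in tip and 0 higher in trunk, with a median of 0.68. Erp27, a disulphide isomerase family gene (chromosome 6, 136907311 to 136922180), had 68 and 122 transcripts in the tip sums and 0 in both trunk sums, at least 10.2-fold and 24.6-fold higher. Xbp1, the transcription factor of the secretory program, was at 680 and 636 CPM in the tip and 159 and 126 in the trunk (2.21 ± 0.133, adjusted p = 3.25e-08). The tip sums lay well above the trunk sums for both genes. Edem1, which marks misfolded proteins for removal, gave 1.98 ± 0.156, and Sec61b, a subunit of the channel into the endoplasmic reticulum, gave 1.03 ± 0.138. The chaperone gene Hspa5 differed less, at 1307 and 1371 CPM against 1066 and 872 (0.47 ± 0.125, adjusted p = 0.0131). Its call was lost with DESeq2, without the block and without either experiment. DESeq2 called 13 genes of the list, all higher in tip, and not Erp27.

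**Figure D3:**
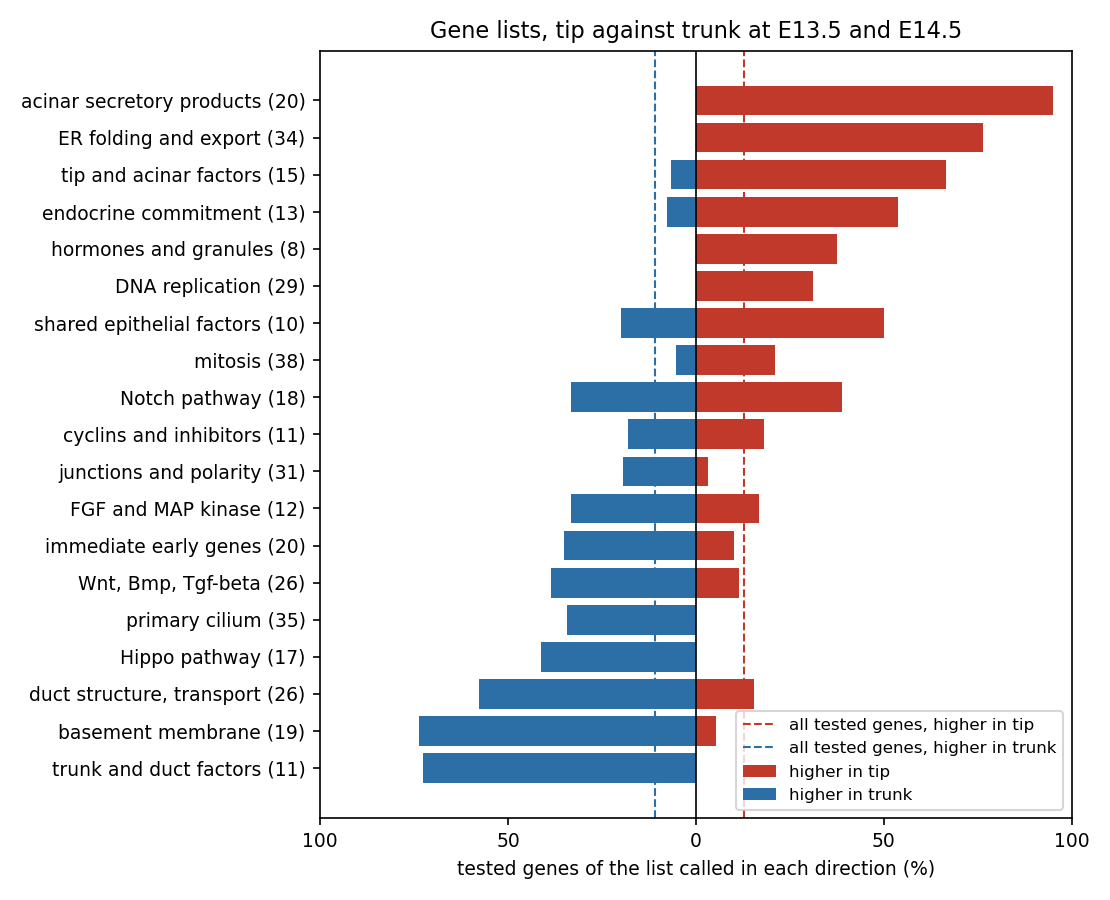
Percent of the tested genes of each list that passed the adjusted threshold. Red bars to the right are genes higher in tip and blue bars to the left genes higher in trunk. Lists with at least 5 tested genes are drawn, except those of mesenchyme markers and liver-type genes. Numbers in brackets are genes tested, and dashed lines give the same percent over all tested genes (12.8 and 11). Among the lists drawn, acinar secretory products and endoplasmic reticulum genes stand furthest to the tip side, trunk factors and basement membrane genes furthest to the trunk side.

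Transcription factors of tip and acinar cells followed the enzymes. Of 15 tested, 10 were higher in tip and 1 higher in trunk, with a median of 1.31. Ptf1a and Rbpjl helped choose the tip wells, so factors that vary with them are not independent of that choice. Bhlha15, the factor Mist1 that matures the acinar secretory apparatus (chromosome 5, 144190286 to 144194441), was at 128 and 175 CPM in the tip and at 0 and 2.79 in the trunk. Its E13.5 level was at least 46.1-fold higher in tip, and the fitted difference was 6.69 ± 0.37 (adjusted p = 1.28e-08). Gata4, a zinc finger factor of early endoderm and tips (chromosome 14, 63198922 to 63271692), was at 174 and 230 CPM against 13.9 and 17.7 (3.67 ± 0.191, adjusted p = 6.85e-09). Both factors were low in trunk sums of both experiments. Nupr1, a small stress-responsive chromatin protein gene, was at 296 and 483 CPM against 10.2 and 19.6 (4.71 ± 0.186).

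The 2 tested Myc family genes split between the classes. Myc was at 163 and 157 CPM in the tip and 13.0 and 20.5 in the trunk (3.26 ± 0.211, adjusted p = 6.18e-08). Mycn, its relative, was at 43.5 and 10.1 CPM in the tip and 136 and 86.6 in the trunk (-2.09 ± 0.249, adjusted p = 3.09e-05). Each kept its direction in both experiments, although the Mycn call was lost without the block. Nr5a2, a nuclear receptor of acinar cells, was at 63.2 and 55.2 CPM against 33.3 and 27.9 (0.95 ± 0.205, adjusted p = 0.00378). Etv5, a factor induced by FGF signalling, gave 1.31 ± 0.358. DESeq2 did not call Nr5a2 or Etv5, and neither was called without either experiment.

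Factors expressed across the whole pancreatic epithelium divided, with 5 of 10 higher in tip and 2 higher in trunk (3 and 3 when scaled to total transcripts). Hnf4a, a nuclear receptor of endodermal organs, was at 58.1 and 50.7 CPM in the tip and 26.9 and 10.2 in the trunk (1.55 ± 0.271, adjusted p = 0.000801). Foxa2, a pioneer factor of endoderm, was at 146 and 135 CPM against 80.6 and 102 (0.63 ± 0.152, adjusted p = 0.00786), and its relative Foxa3 gave 1.14 ± 0.259. The zinc finger factor Gata6 was at 94.9 and 76.6 CPM in the tip and 159 and 147 in the trunk (-0.84 ± 0.139), the reverse of Gata4. Ehf, an epithelial ETS factor, was also higher in trunk (-0.96 ± 0.185). The calls of Foxa2, Foxa3, Gata6 and Ehf were lost with DESeq2 and without either experiment, and that of Hnf4a without the E14.5 experiment. Pdx1, the pancreatic master factor, was too low to test, at 4.60 and 6.76 CPM in the tip and 1.85 and 1.86 in the trunk.

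Of the transcription factors known from trunk, duct and bipotent cells, 8 of 11 tested were higher in trunk and 0 higher in tip, with a median of -0.92. Trunk wells were chosen by Sox9 and Spp1, so factors that vary with these genes are not independent of that choice. Nkx6-1, which opposes Ptf1a in setting trunk identity, was at 23.0 and 48.5 CPM in the tip and 62.1 and 128 in the trunk (-1.41 ± 0.182, adjusted p = 6.11e-05). Trunk exceeded tip within each experiment, but the level in E14.5 tip wells came close to that of E13.5 trunk wells. Hhex, a homeobox factor of the duct and foregut, gave -1.40 ± 0.167. Without the E14.5 experiment neither gene was called, and Nkx6-1 was also lost without the block. The duct factors Onecut1 (4.60 and 6.76 CPM in tip, 5.56 and 11.2 in trunk) and Glis3 (0 and 0 against 0.926 and 1.86) were too low to test.

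Structural and transport genes of ducts leaned to the trunk: 15 of 26 tested were higher in trunk and 4 higher in tip, with a median of -0.98. Those that vary with Sox9 or Spp1 are likewise not independent of the choice of wells. Dcdc2a, a doublecortin family gene of cilia, was at 7.53 and 3.94 CPM in the tip and 194 and 224 in the trunk (-5.10 ± 0.231, adjusted p = 1.77e-09). Anxa2, an annexin gene, was at 29.7 and 18.6 CPM against 279 and 420 (-3.78 ± 0.212), and Pkhd1, the fibrocystin gene of polycystic disease, gave -2.73 ± 0.409, a call lost without either experiment. The keratin Krt19, a duct marker, was at 13.0 and 24.2 CPM in the tip and 28.7 and 118 in the trunk (-1.88 ± 0.257, adjusted p = 0.000104). It was separated clearly at E14.5 and little at E13.5, and its call was lost without the block and without the E14.5 experiment. Some genes of the list did not follow it. Ambp, the precursor of a protease inhibitor, was at 1058 and 920.1 CPM in the tip and 514 and 401 in the trunk (1.12 ± 0.12, adjusted p = 1.19e-05), and the small heat shock protein gene Hspb1 gave 2.62 ± 0.27, lost without the E13.5 experiment. The apical surface genes Muc1 (0.12 ± 0.161, adjusted p = 0.658) and Prom1 (0.02 ± 0.144, adjusted p = 0.936) did not pass the test, and both changed sign when scaled to total transcripts. Cftr, the chloride channel of mature ducts, had 1 and 0 transcripts in tip sums and 0 and 4 in trunk sums.

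**Figure D4:**
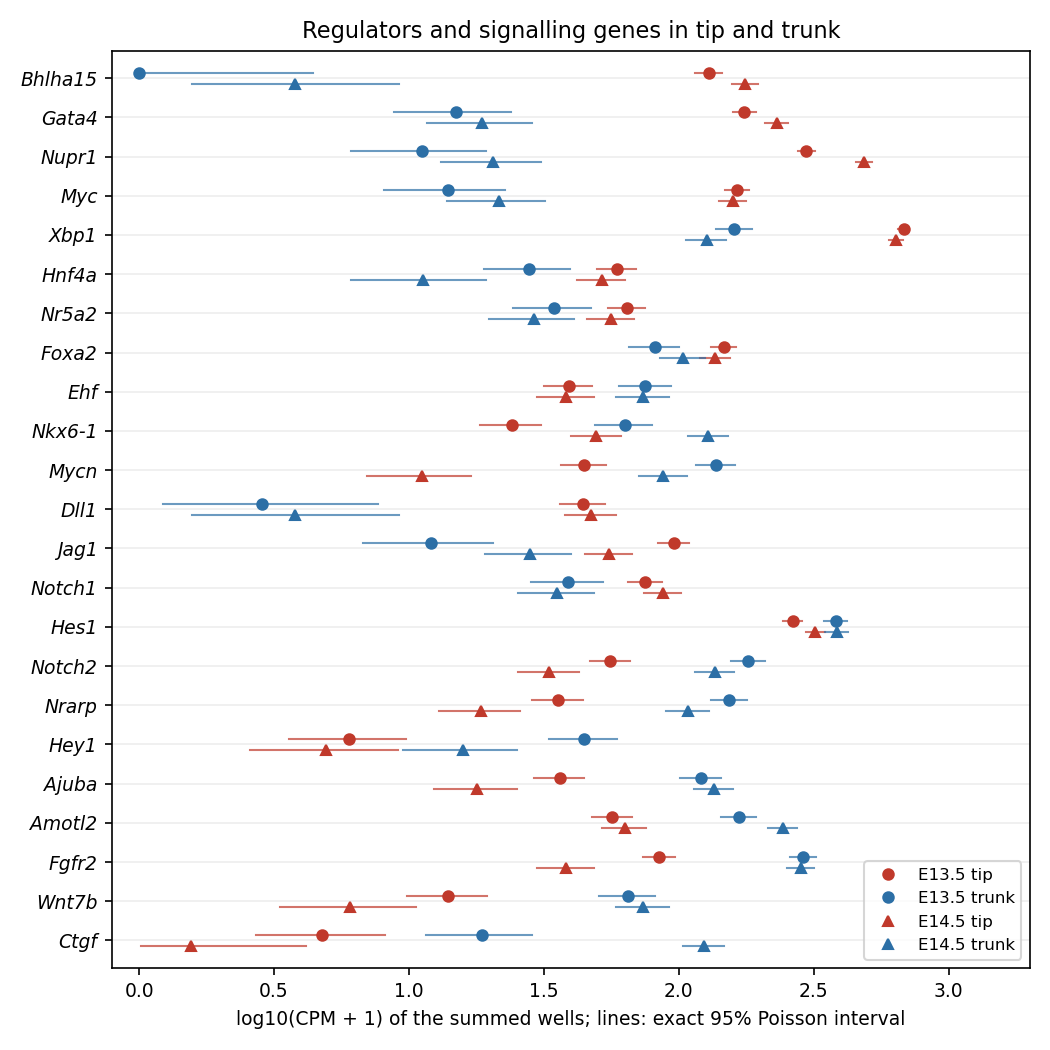
Level of regulators and signalling genes in the summed wells of each class (red tip, blue trunk; circles E13.5, triangles E14.5), as log10(CPM + 1) with exact Poisson intervals that cover counting error only. From Bhlha15 to Foxa2 and from Dll1 to Notch1 the tip sums lie to the right, and for the others the trunk sums do, by little for Hes1.

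In the Notch pathway the called ligands were higher in tip, while called receptors and targets lay on both sides. Of 18 tested genes, 7 were higher in tip and 6 higher in trunk, with a median of -0.06 (6 and 8 when scaled to total transcripts). Over all tested genes the shares were 12.8% and 11%, and 8.5% and 20.6% when scaled to total transcripts. The ligand Dll1 (chromosome 17, 15367354 to 15376872) was at 43.1 and 46.2 CPM in the tip and 1.85 and 2.79 in the trunk (4.22 ± 0.397, adjusted p = 3.28e-06). The ligand Jag1 was at 94.5 and 54.1 CPM against 11.1 and 27.0 (1.95 ± 0.331, adjusted p = 0.000644). Dll1 was nearly absent from trunk sums, with 2 and 3 transcripts, while the Jag1 gap was wider at E13.5. Dll1 is also on the endocrine commitment list, and only the trunk thresholds limited Neurog3. Where Dll1 varies with Neurog3, its gap is not independent of that choice. Jag1 gave 0.97 and lost its call without the E13.5 experiment, and DESeq2 did not call it.

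Notch receptors went both ways. Notch1 was at 74.0 and 86.2 CPM in the tip and 38.0 and 34.5 in the trunk (1.14 ± 0.196, adjusted p = 0.00073). Notch2 was at 54.8 and 32.1 CPM against 180 and 135 (-1.86 ± 0.16, adjusted p = 1.39e-06), and Notch3 gave -2.29 ± 0.25. Notch1 and Notch3 were not called without either experiment and Notch1 not with DESeq2. Among targets, Nrarp, a feedback inhibitor, was at 34.7 and 17.5 CPM in the tip and 153 and 107 in the trunk (-2.32 ± 0.187, adjusted p = 7.17e-07). Hey1, a repressor induced by Notch, gave -2.70 ± 0.392. The target Hes1, a repressor that holds progenitors undifferentiated, differed little, at 263 and 319 CPM against 380 and 384 (-0.40 ± 0.123, adjusted p = 0.029), and was not called with DESeq2, without the block or without either experiment. Lfng, which modifies Notch receptors with sugars, was higher in tip with 37 and 41 transcripts against 2 and 0.

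In the Hippo pathway, 7 of 17 tested genes were higher in trunk and 0 higher in tip, with a median of -0.36. For all tested genes these shares were 11% and 12.8%. The adaptor Ajuba was at 35.1 and 16.9 CPM in the tip and 119 and 134 in the trunk (-2.26 ± 0.234, adjusted p = 8.23e-06). Amotl2, an angiomotin gene and target of Yap (chromosome 9, 102716672 to 102733418), was at 55.6 and 62.0 CPM against 166 and 241 (-1.77 ± 0.147, adjusted p = 9.44e-07). Wwtr1, which encodes Taz, gave -1.95 ± 0.26, a call lost without either experiment. Trunk sums were above tip sums in both experiments for each. The secreted Yap target Ctgf was at 3.76 and 0.563 CPM in the tip and 17.6 and 123 in the trunk (-4.58 ± 0.568, adjusted p = 4.35e-05). Most of its trunk signal came from E14.5 (132 transcripts, against 19 at E13.5), and its call was lost with DESeq2 and without the E14.5 experiment. Cyr61, another secreted target, was at 123 and 568 CPM in the tip and 386 and 1209.9 in the trunk (-1.34 ± 0.143), so both classes were higher at E14.5, a difference between single experiments with no test. Without the block Cyr61 was not called. Yap1 itself gave -0.26 ± 0.14 (adjusted p = 0.214), but -0.46 and a call when scaled to total transcripts, and the partner factor Tead2 gave 0.04 ± 0.125 (adjusted p = 0.852).

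The FGF receptor genes Fgfr2, Fgfr3 and Fgfr4 were higher in trunk than in tip. Fgfr2, the epithelial receptor for mesenchymal FGFs (chromosome 7, 130162451 to 133123350), was at 83.7 and 37.2 CPM in the tip and 287 and 282 in the trunk (-2.24 ± 0.198, adjusted p = 1.74e-06). Fgfr3 was at 5.44 and 18.0 CPM against 44.5 and 59.6 (-2.23 ± 0.303), a call lost without the E13.5 experiment. Of 12 tested FGF and MAP kinase feedback genes, 4 were higher in trunk and 2, Etv5 and Etv1, higher in tip, with a median of -0.24. The shares over all tested genes were 11% and 12.8%. The feedback phosphatase Dusp6 did not pass (-0.18, adjusted p = 0.685). Etv1 had 22 and 62 transcripts in tip sums, 35 of the 62 from the single well that stood apart, and without that well the difference was 3.60 in place of 4.41. DESeq2 called 2 of the list higher in trunk and 0 higher in tip, so the Etv1 and Etv5 calls were lost, and Etv1 fell below the filter with the E15.5 sums in the fit.

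Among 26 tested genes of the Wnt, Bmp and Tgf-beta pathways, 10 were higher in trunk and 3 higher in tip, with a median of -0.41 (14 and 1 when scaled to total transcripts, 2 and 1 with DESeq2). All tested genes gave 11% and 12.8% (20.6% and 8.5% when scaled to total transcripts, 3.02% and 4.08% with DESeq2). Wnt7b, an epithelial Wnt ligand (chromosome 15, 85535437 to 85582473), was at 13.0 and 5.07 CPM in the tip and 63.9 and 72.7 in the trunk (-2.85 ± 0.299, adjusted p = 9.24e-06). Axin2, a common Wnt target, gave -1.34 ± 0.313, and the Tgf-beta receptor Tgfbr2 gave -1.82 ± 0.342. Id1, a Bmp target that inhibits basic helix-loop-helix factors, went the other way, at 164 and 221 CPM in the tip and 69.5 and 54.0 in the trunk (1.62 ± 0.177, adjusted p = 1.38e-05), a call lost without the E14.5 experiment. Fzd3, a Wnt receptor, gave 0.59 ± 0.162 and lost its call with DESeq2 and without either experiment, as did Tgfbr2 and Axin2.

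Genes of endocrine commitment were read with the single well in mind, and with the Neurog3 condition, which only the trunk thresholds held. That condition left 20 and 16 wells out of the trunk, so genes that vary with Neurog3 are not independent of the choice. Of 13 tested genes of the list, 7 were higher in tip and 1 higher in trunk (5 and 5 when scaled to total transcripts). Without the single well, 6 of 12 and 2 of 12 were. Chgb, a granule protein gene, was at 18.8 and 292 CPM in the tip and 15.7 and 40.1 in the trunk (2.32 ± 0.338, adjusted p = 0.000175). Its call was made by that well: without it the difference was -0.09 (adjusted p = 0.845). Fev, a factor of endocrine precursors, was too low to test without it. Cpe, a prohormone processing enzyme, was higher in tip either way, at 55.2 and 81.7 CPM against 5.56 and 14.0 (2.81 ± 0.271) and 2.09 without the well. The corepressor Cbfa2t3 was at 39.3 and 67.0 CPM against 2.78 and 3.73 (4.00 ± 0.353, adjusted p = 1.76e-06). The endocrine factor Nkx2-2 did not pass (-0.28 ± 0.153, adjusted p = 0.22) except when scaled to total transcripts (-0.48), and Neurod1 and Pax4 were too low to test.

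Genes of dividing cells had transcripts in both classes. Over all tested genes, 12.8% were higher in tip and 11% higher in trunk. Of 29 tested DNA replication genes, 9 were higher in tip and 0 higher in trunk, with a median of 0.37, and of 38 mitosis genes, 8 were higher in tip and 2 in trunk, with a median of 0.15. Scaled to total transcripts, these counts were 5 and 0 and then 3 and 4, and DESeq2 called 3 and 0 and then 0 and 0 (edgeR called 9 and 0, 8 and 2). Uhrf1, which maintains DNA methylation at replication, was at 118 and 168 CPM in the tip and 75.0 and 68.0 in the trunk (0.98 ± 0.17, adjusted p = 0.000754). Cdc6, which loads the replicative helicase, gave 1.14 ± 0.186. Among mitosis genes Cdc20, an activator of the anaphase-promoting complex, gave 0.73 ± 0.18 and Prc1, a spindle midzone gene, -0.55 ± 0.136. None of these 4 calls held without either experiment. The proliferation marker Mki67 was at 379 and 282 CPM against 355 and 197 (0.29 ± 0.132, adjusted p = 0.137), and Top2a at 396 and 355 against 457 and 288 (0.03 ± 0.136, adjusted p = 0.885). Neither passed. The mitosis share was higher in deeper wells (Spearman's rho 0.51 and 0.21 in tip wells, 0.53 and 0.58 in trunk wells), and tip wells were deeper. With wells thinned to 6000 transcripts before the thresholds, 6 of 28 replication genes and 2 of 37 mitosis genes were called, all higher in tip. Among all 5610 genes tested in thinned wells, 398 were called higher in tip and 292 higher in trunk.

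The D-type cyclins were divided between the classes. Ccnd1 (chromosome 7, 144929931 to 144939925) was at 246 and 175 CPM in the tip and 470 and 454 in the trunk (-1.14 ± 0.133, adjusted p = 2.48e-05). Ccnd2 was at 354 and 467 CPM against 157 and 137 (1.47 ± 0.149, adjusted p = 6.49e-06). The Ccnd1 call was lost without the E14.5 experiment and the Cdkn1c call below without either. Inhibitors split too: Cdkn1c, which encodes p57, was at 298 and 217 CPM in the tip and 522 and 465 in the trunk (-0.95 ± 0.124), while Cdkn1a, which encodes p21, was at 115 and 125 against 73.2 and 87.6 (0.58 ± 0.148, adjusted p = 0.0107). Cdkn1a turned to -0.24 when wells were thinned to an equal number of transcripts before the thresholds were applied, and DESeq2 did not call it.

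Basement membrane genes leaned strongly to the trunk, with 14 of 19 tested higher in trunk and 1 higher in tip, and a median of -1.30. The laminin chain Lama1 was at 6.69 and 2.25 CPM in the tip and 77.8 and 65.2 in the trunk (-3.92 ± 0.304, adjusted p = 4.82e-07). Col18a1, a collagen of epithelial basement membranes (chromosome 10, 77052178 to 77166548), was at 70.3 and 24.2 CPM against 419 and 471 (-3.23 ± 0.249, adjusted p = 4.61e-07). The collagen IV gene Col4a1 gave -3.00 ± 0.209. The exception was Itga6, a laminin receptor subunit, at 54.8 and 77.2 CPM in the tip and 7.41 and 14.9 in the trunk (2.57 ± 0.259, adjusted p = 6.31e-06). Some of these genes were also expressed by mesenchymal wells of the same plates (Lama1 at 67.9 and 58.1 CPM, Col18a1 at 101 and 139). Transcripts of the mesenchyme list were higher in trunk sums, most of them from Vim, as given above. Col1a1 and Dcn, given there too, were not higher in trunk in both experiments. The part of mesenchymal transcripts in these differences was not tested.

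Primary cilium genes were called in 1 direction in the main fit: 12 of 35 were higher in trunk and 0 higher in tip, with a median of -0.51. DESeq2 called 5 and 0. In wells thinned to 6000 transcripts before the thresholds, 4 of 17 were higher in trunk and 1 higher in tip. Beside Dcdc2a and Pkhd1 the 12 of the main fit included Cys1, the cystin gene (-2.40 ± 0.331), and Pkd2, a polycystin channel gene (-1.13 ± 0.164). Without the E14.5 experiment neither was called. Of 31 genes of junctions and polarity, 6 were higher in trunk and 1 higher in tip (13 and 1 when scaled to total transcripts, and 0 and 0 with DESeq2). Among all tested genes 11% were higher in trunk and 12.8% in tip (20.6% and 8.5% when scaled to total transcripts). The tight junction genes Cldn3 (-0.68 ± 0.136) and Tjp1 (-0.59 ± 0.161) were among the 6 and lost their calls without the block and without either experiment. The desmosome gene Pkp2 was the 1 higher in tip, at 33.5 and 32.7 CPM against 16.7 and 10.2 (1.29 ± 0.296).

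Immediate early genes, which also respond to tissue dissociation, differed between the experiments as well as between the classes. Of 20 tested, 7 were higher in trunk and 2 higher in tip, with a median of -0.12, beside 11% and 12.8% of all tested genes. Atf3, a stress-induced factor, was at 0 and 38.3 CPM in the tip and 4.63 and 135 in the trunk (-1.91 ± 0.286, adjusted p = 0.000221), and Ier3 at 6.69 and 3.38 against 24.1 and 86.6 (-3.21 ± 0.437). Nearly all Atf3 transcripts came from the E14.5 plate. Both calls were lost with DESeq2 and without that experiment, and that of Atf3 also without the block. Fos was at 204 and 606 CPM in the tip and 213 and 681 in the trunk (-0.12 ± 0.121, adjusted p = 0.509). Btg2, an antiproliferative gene of this list, was higher in tip (1.00 ± 0.145) and lost its call without the block and without either experiment. The part of dissociation in these values was not tested.

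Genes named for other organs also separated the classes. Of 5 tested liver-type secreted genes, 4 were higher in tip and 0 in trunk, with a median of 1.86. Ttr, the transthyretin gene, was at 1125 and 1005 CPM in the tip and 257 and 238 in the trunk (2.11 ± 0.125, adjusted p = 2.78e-08). Serpina1b, an antitrypsin gene with close copies, was at 194 and 77.2 CPM against 58.4 and 14.9 (1.91 ± 0.188). Alb, the albumin gene that defines hepatocytes, had 3.35 and 0.563 CPM in the tip and 0 in both trunk sums. Ret, the receptor for GDNF known from the enteric nervous system (chromosome 6, 118151745 to 118197718), was at 44.8 and 72.7 CPM in the tip against 0.926 and 0.931 in the trunk (5.86 ± 0.441, adjusted p = 3.72e-07). Sox10, a neural crest and Schwann cell factor, went the other way at 3.76 and 1.13 CPM against 52.8 and 33.5 (-4.06 ± 0.377, adjusted p = 2.9e-06). Of the neural list, the neural crest factor Foxd3 was at 0 in all 4 sums. Pdgfrb, a pericyte receptor on the mesenchyme list, had 41 and 32 transcripts in the tip sums and 0 in both trunk sums, at least 6.17-fold and 6.45-fold higher in tip.

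Among the genes furthest to the trunk side outside the lists, named by their size alone, Adamts16, a secreted metalloprotease gene (chromosome 13, 70727802 to 70841811), was at 2.93 and 1.69 CPM in the tip and 135 and 136 in the trunk (-5.78 ± 0.277, adjusted p = 3.55e-09). Col2a1, the cartilage collagen gene (chromosome 15, 97975602 to 98004695), was at 13.0 and 5.07 CPM against 384 and 324 (-5.24 ± 0.203, adjusted p = 3.37e-10). Col9a1, which encodes a collagen that binds it, gave -4.05 ± 0.345 and Spon1, a matrix protein gene, -5.05 ± 0.213. Mesenchymal wells of the same plates had only 28.2 and 19.8 CPM of Col2a1 and 8.81 and 7.45 of Adamts16. The small GTPase gene Arl4c gave -3.91 ± 0.206, the carboxylesterase gene Ces1d -3.99 ± 0.459, the protease inhibitor family gene Wfdc10 -4.41 ± 0.254 and the aldo-keto reductase gene Akr1cl -3.90 ± 0.345. On the tip side, Serpinb1a, an inhibitor of elastase-like proteases, was at 110 and 150 CPM against 2.78 and 3.73 (5.29 ± 0.292, adjusted p = 1.25e-08).

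The same thresholds were applied to live plates of other stages, whose wells did not choose the genes above, although the Cpa1 and Spp1 thresholds act there too. At E15.5 (149 tip and 34 trunk wells in 2 experiments), 865 of 8096 genes were called (10.7%; 491 or 6.06% higher in tip and 374 or 4.62% in trunk). Of the 1158 genes higher in tip at E13.5 and E14.5 that were also tested at E15.5, 1098 had the same direction (94.8%), 402 were called that way and 0 the other way. For genes higher in trunk, 832 of 892 kept their direction (93.3%), with 328 called that way and 0 the other way. Over all genes tested at both, 5.83% were called higher in tip and 4.62% higher in trunk at E15.5. At E15.5, 6 of 7 tested mesenchyme markers were higher in tip, and their part in that comparison was not tested. At E12.5 (96 tip and 106 trunk wells in 2 experiments; a comparison added after seeing the data), 463 of 9181 genes were called (5.04%; 2.69% higher in tip and 2.35% in trunk), and 1044 of 1155 tip genes (90.4%) and 828 of 933 trunk genes (88.7%) kept their direction, against 50.7% and 49.3% of all genes tested at both. Of these, 216 and 187 were called the same way and 1 and 0 the opposite way.

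**Figure D5:**
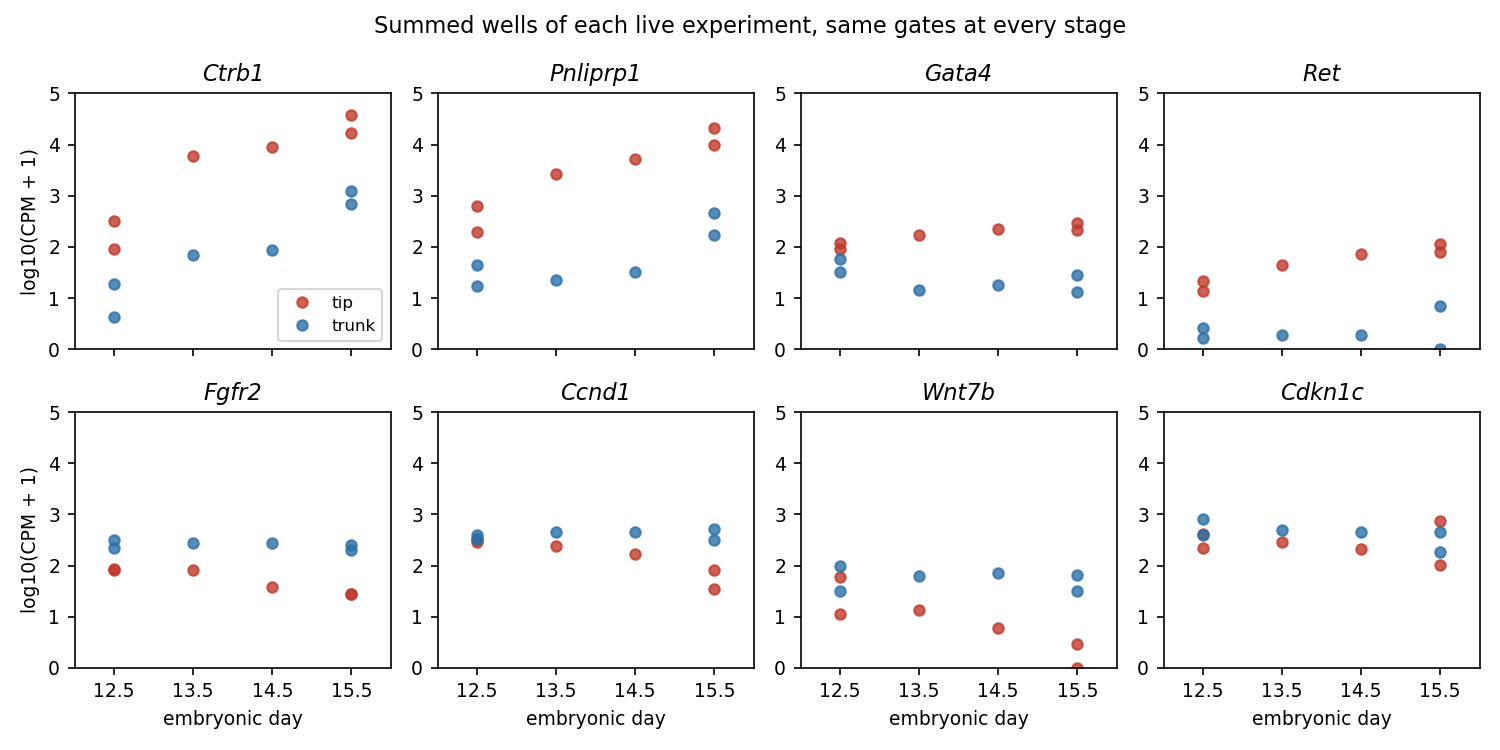
Levels of 8 genes as log10(CPM + 1) in the summed tip (red) and trunk (blue) wells of each live experiment, by embryonic day, with 2 experiments at E12.5 and at E15.5 and 1 at each stage between. Tip and trunk lie apart at all 4 stages for Ctrb1, Pnliprp1, Gata4, Ret and Fgfr2, and Gata4, Ccnd1 and Wnt7b come closest at E12.5. Cdkn1c lies higher in trunk except in 1 experiment at E15.5, with 736 CPM in tip and 441 in trunk.

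The difference between tip and trunk was itself compared between E13.5 to E14.5 and E15.5. Of 8982 genes tested for this interaction, 2 passed (0.0223%): Ctrb1, whose tip-trunk difference was larger by 1.82 at the earlier stages (adjusted p = 0.000685), and Pnliprp1, larger by 1.54 (adjusted p = 0.0146), both by edgeR's quasi-likelihood test. With no filter on low values 112 were called, and 629 of the 8982 had an unadjusted p under 0.05. Scaled over all 6 experiments, Ctrb1 in trunk sums was at 68.0 and 86.3 CPM at E13.5 and E14.5 and at 687 and 1216 CPM in the E15.5 experiments, while the tip went from 6058 and 9172 to 16965 and 38027 CPM. The mesenchymal wells of the E15.5 plates, chosen in the same way after seeing the data, held 493 and 1369 CPM of Ctrb1 (95 and 8 wells) and 160 and 516 CPM of Pnliprp1, near the trunk levels there. The trunk levels of both genes were therefore not read as expression at any of these stages, and the part of this background in the interaction was not tested. Neither Ccnd1 nor Fgfr2 passed the interaction, which did not include E12.5, so their levels along the stages are only described. Ccnd1 was at 327 and 288 CPM in tip and 327 and 389 in trunk at E12.5. At E15.5 it was at 80.8 and 33.7 in tip and 513 and 309 in trunk. Fgfr2 in the tip was at 82.7 and 81.3 CPM at E12.5 and 26.2 and 27.0 at E15.5, and between 198 and 312 in all trunk sums.

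The share of live wells in each class depends on depth, since the thresholds are numbers of transcripts. Tip wells were 24.8% of retained wells at E13.5 (86 of 347, Wilson 95% interval 20.5 to 29.6) and 13.8% at E14.5 (44 of 319, 10.4 to 18.0). Trunk wells were 14.7% (51 of 347, 11.4 to 18.8) and 10.97% (35 of 319, 8.00 to 14.9). Intervals cover counting error only. After thinning every well to 6000 transcripts before the thresholds, tip shares were 15.96% and 9.70% and trunk shares 15.4% and 14.4%. The direction between the stages depended on the wells counted: the tip share was lower at E14.5 in both of these, but among the wells the authors kept it was 29.9% at E13.5 and 31.6% at E14.5. The stages are 2 experiments with no test between them.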

How the data were processed

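Single live-sorted wells of the E13.5 and E14.5 plates were compared. The authors deposited transcripts per gene and well as estimated counts, per the file headers and values: unique molecular identifiers corrected for saturation, which need not be whole and end at a ceiling of 1597. BWA, Seurat and the build mm10 are named per the submitters' processing notes, and the counting tool is not given in the sources used here. Of the table's columns, 1536 matched no listed library and were not used. The 89 spike-in rows were left out, the table has 0 mitochondrial rows, and no 2 retained wells had the same values (0 wells).

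The estimated counts deposited by the authors were summed over the wells of a class and experiment (at least 10 wells a sum) and rounded to whole numbers. edgeR 4.0.16 (filterByExpr, TMM, quasi-likelihood test) was run with the experiment as block, since tip and trunk wells come from the same plate, and 6 threshold genes were left out of the table of tests. Adjusted p-values are Benjamini-Hochberg over all tested genes, called under 0.05. The difference from E15.5 was an interaction term. With 1 residual degree of freedom among the 4 sums, the spread was moderated across genes. On simulated counts with the same sums, 98.5% of genes changed 4-fold and 26.9% of those changed 2-fold were recovered. The simulated spread (dispersion 0.05) was wider than that fitted to the data (common dispersion 0.00691). No difference between experiments was simulated, and changed genes were drawn only from those above a minimum level. These shares therefore do not give the power of the fit to the data. Doublets were not called, since wells held single sorted cells, and 0 tip or trunk wells had over 5 times the plate median of transcripts. Gene positions are from the GENCODE annotation of GRCm38.

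Genes were named by a rule: the 12 with the largest difference in each direction at 50 CPM or more, the 2 largest called in each direction of each list at 20 CPM or more, and a set of known regulators; 19 other list members were added after their values were seen, with levels of markers at or near 0. The classes, the gene lists and the rule were chosen with earlier results of these data known. Alternatives were DESeq2 1.42.0, limma 3.58.1 on mean CPM of wells, other scalings and filters, no block, sums of other stages in the same fit, each experiment left out, and other ways to choose wells. R 4.3.3, Python 3.11.15, numpy 2.4.6, scipy 1.17.1, pandas 2.3.3 and matplotlib 3.10.9 were used.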

Additional observations from a re-analysis of the deposited data

Results flagged for a closer look

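The tip-trunk difference of Ctrb1, a chymotrypsinogen gene, was larger at E13.5 and E14.5 than at E15.5 by 1.82 ± 0.148 on the log2 scale (edgeR's quasi-likelihood interaction test, adjusted p = 0.000685). That of Pnliprp1, a lipase family gene, was larger by 1.54 ± 0.182 (adjusted p = 0.0146). The trunk sums of E15.5 rest on 13 and 21 wells, and the trunk levels of both genes lay near those of mesenchymal wells of the same plates at these stages. The part of that background in the differences was not tested. On the E14.5 plate sorted for MIP-GFP, which no comparison here uses, 2 of 335 retained wells passed the trunk thresholds (0.597%) and 0 passed the tip thresholds, which allows a share of up to 0.896%.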

How the results depend on the processing

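The 2347 calls were 703 with DESeq2, 934 without the replicate block, 1449 with the E15.5 sums in the same fit, 690 of 5610 genes with wells thinned to 6000 transcripts before the thresholds, and 857 with limma on mean CPM of wells (262 higher in tip and 595 in trunk). Leaving out 1 experiment gave 217 (without E14.5) to 447 (without E13.5) calls, where the lone experiment was assumed to vary like those of E15.5. Scaling to total transcripts gave 841 higher in tip and 2036 in trunk. None of the calls changed sign (0 genes) with DESeq2, limma, total scaling, no block, E15.5 sums or either experiment left out, and 29 of 1647 did in thinned wells. The block pairs tip and trunk wells of 1 plate. Of 91 genes named by the rule and tested, 87 were called and 43 were called under every alternative run. Signs that turned were Cdkn1a in thinned wells (-0.24), Chgb with stricter thresholds (-0.13) and without the well rich in other markers (-0.095), Fos in thinned wells (0.028), and Muc1 (-0.10), Prom1 (-0.18), Top2a (-0.17) and Tead2 (-0.16) with total scaling. Prom1 (-0.21) and Tead2 (-0.19) also turned with limma, and Tead2 in thinned wells (-0.14). With 1 experiment left out, Muc1 ranged from -0.031 to 0.31, Prom1 from -0.040 to 0.047, Top2a from -0.22 to 0.28, Tead2 from -0.12 to 0.16 and Dusp6 from -0.88 to 0.37. The interaction with E15.5 called 2 genes and 112 with no filter. The tip share was 15.96% at E13.5 and 9.70% at E14.5 in thinned wells, and in the wells the authors kept 29.9% and 31.6%, which turns the direction between the stages, with trunk shares of 24.1% and 21.9%. The cause of these changes was not tested. Alternatives with E12.5 sums and without the well rich in other markers were chosen after seeing the data. Depth limits genes under about 20 CPM, where a sum of a class holds few transcripts.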
